A study of Mus musculus with 14 samples.

Results

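Genes of 6 families of drug-metabolising enzymes were followed in the mouse colon: the cytochrome P450 subfamilies Cyp2 and Cyp3a, the carboxylesterases (Ces), the glutathione S-transferases (Gst), the UDP-glucuronosyltransferases (Ugt) and the sulfotransferases (Sult). Members were taken by gene name alone, as every Cyp2, Cyp3a, Ces, Gst (classes a, k, m, o, p, t and z), Ugt1a, Ugt2a, Ugt2b and Sult gene in the deposited count table, which gave 140 of its 21898 genes. All 140 are annotated as protein-coding.

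These enzymes let a tissue clear drugs, plant compounds, bacterial products and its own steroids and lipids. Cytochromes P450 add oxygen to a substrate and carboxylesterases cut ester and amide bonds, which exposes a reactive group. Glutathione transferases, glucuronosyltransferases and sulfotransferases then attach glutathione, glucuronic acid or sulfate, so that the product dissolves in water and can be exported. The liver is the main site, and the intestinal epithelium carries its own set of these enzymes between the gut contents and the blood.

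RNA was sequenced in 14 samples of colon from wild-type mice, 7 taken after gavage with phosphate-buffered saline (PBS) and 7 after gavage with Bacteroides thetaiotaomicron, a gut bacterium that degrades polysaccharides. The labels give the genotype only as wild type, state 1 treatment wording and 1 batch for all 14 samples, and give no strain, age, dose or time. The titles mark all but the first sample of each group as a biological replicate. The labels do not say whether each sample came from 1 animal, so each p-value reflects only how these samples varied, which may be partly technical. Total counts were 13150140 to 16781708 per sample, and the members took 0.384% to 0.715% of them.

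Summed FPKM (counts scaled to gene length and library size, as deposited) of 14 colon epithelial genes was 7986 to 11974. No other tissue was compared, so this sum does not test the colon label. The distal hindgut transcription factor genes Hoxb13 and Hoxd13 varied widely in both groups, from 0.0904 FPKM in PBS sample 4 to 215 FPKM in PBS sample 3 for Hoxb13 and from 0 to 88.0 FPKM in the same samples for Hoxd13. A distal Hox score, the mean log2 CPM (counts scaled to library size only) of 5 such genes, was 3.04 ± 2.003 (SD, n = 7) in the PBS group. In the group given the bacterium it was 2.22 ± 1.27 (SD, n = 7). It ran from 0.40 in PBS sample 4 to 5.88 in PBS sample 3. The 5 genes did not all vary together: Hoxd10 was at 4.47 FPKM in PBS sample 4 and at 4.08 FPKM in PBS sample 3. Although part of the score, Hoxa13, Hoxd10 and Hoxd11 had slopes on it that did not pass (edgeR adjusted p = 0.372, 0.7 and 0.168). Hoxd10 and Hoxd11 were scarce, at means of 0.975 and 0.409 FPKM. The labels do not say from where along the colon a sample was taken.

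In a bulk tissue sample, fewer cells of a type and less RNA per cell cannot be told apart. Of 7 small intestinal enterocyte genes, Apoa4, which defines small intestinal absorptive cells, was listed at 0 in every sample, and Lct, the lactase gene, stayed at or below 0.0639 FPKM. Their summed level was 17.4 to 375 FPKM with PBS and 52.5 to 364 FPKM with the bacterium. Most of it was Fabp2, a fatty acid binding protein gene, with a log2 slope of -0.74 ± 0.13 (SE; edgeR adjusted p = 0.00163) on the distal Hox score. Liver is the classical source of these enzymes, and 3 of 8 hepatocyte genes (Fga, Fgb and Serpina1a) were at 0 in all samples, with Alb between 0.0874 and 1.14 FPKM. The summed level of the 8 was 2.55 to 36.0 FPKM with PBS and 3.16 to 25.1 FPKM with the bacterium. Most of it was Ttr, the transthyretin gene, at 1.79 to 34.2 FPKM with a log2 slope of 0.74 ± 0.09 (SE; edgeR adjusted p = 1.39e-04) on the score, and its part in the members' levels was not tested.

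Of the 140 members, 32 had no reads in any sample, 45 had reads but fell below the filter on low counts, and 63 were tested. Several branches best known from the liver were silent or nearly so. All 8 Sult2a genes, which sulfate bile acids and steroids in mouse liver, had no reads, and none of the Cyp2a genes, the 5 Cyp2b genes and the 3 Ugt2a genes passed the filter. Among the 9 Cyp3a genes 1 was tested. Every Gst gene had reads, and 19 of 23 were tested, against 19 of 49 Cyp2, 10 of 19 Ces, 7 of 19 Ugt and 7 of 21 Sult genes.

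A few genes carried each family, as the mean deposited FPKM over the 14 samples shows. Gst genes summed to 654 FPKM, or 31.4% of the level of all members, led by Gsto1 at 195 FPKM, an omega-class enzyme with thiol transferase activity, Gstm1 at 142 FPKM and Gstp1 at 79.2 FPKM. Cyp2 genes summed to 466 FPKM, led by Cyp2c55 at 138 FPKM, which oxidises arachidonic acid, Cyp2d34 at 90.9 FPKM and Cyp2c65 at 50.2 FPKM. The 3 leading genes held 63.5% of the Gst level and 59.8% of the Cyp2 level.

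Sult genes summed to 371 FPKM, of which the phenol sulfotransferase gene Sult1a1 at 156 FPKM, Sult1d1 at 122 FPKM and Sult1b1 at 72.3 FPKM held 94.6%. Ces genes summed to 351 FPKM, with 77.2% in Ces2c at 139 FPKM, Ces2e at 94.8 FPKM and Ces2a at 36.9 FPKM, all of the Ces2 branch that hydrolyses esters in the intestine. Ugt genes summed to 172 FPKM, of which Ugt2b34 at 124 FPKM, Ugt1a7c at 27.8 FPKM and Ugt2b35 at 9.71 FPKM held 94.1%. Cyp3a13, the Cyp3a gene known from mouse intestine, held 99.9% of the Cyp3a level at 66.03 FPKM.

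**Figure D1:**
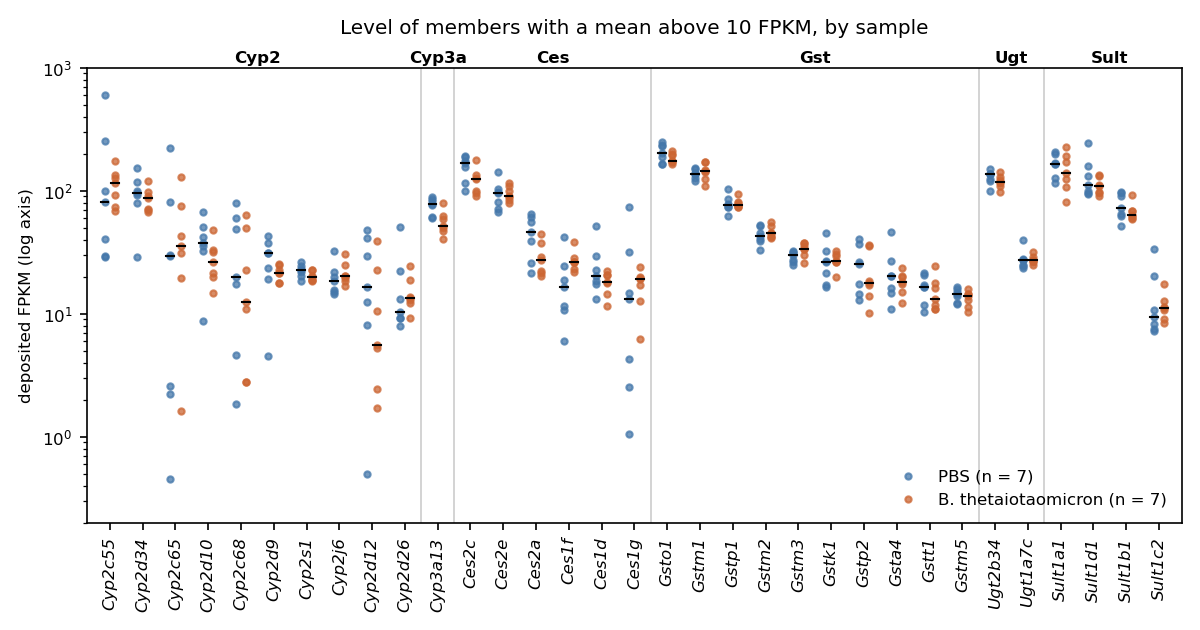
Deposited FPKM (log axis) of the 33 members with a mean above 10 FPKM, grouped by family, 1 point per sample (blue PBS, orange B. thetaiotaomicron, n = 7 each) with the group median as a bar. Gsto1 spans 164 to 251 FPKM, whereas Cyp2c65 spans 0.450 to 223 FPKM and Cyp2c68 spans 1.85 to 79.96 FPKM across the PBS samples alone.

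Summed over all members, the level was lowest at 1635, median 2132 and highest at 3162 FPKM with PBS, and 1723, 2010 and 2239 FPKM with the bacterium. PBS sample 4, the sample with the lowest distal Hox score, stood highest, with 1011 FPKM of Cyp2 genes against 290 to 619 FPKM in the other PBS samples. The groups overlapped.

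**Figure D2:**
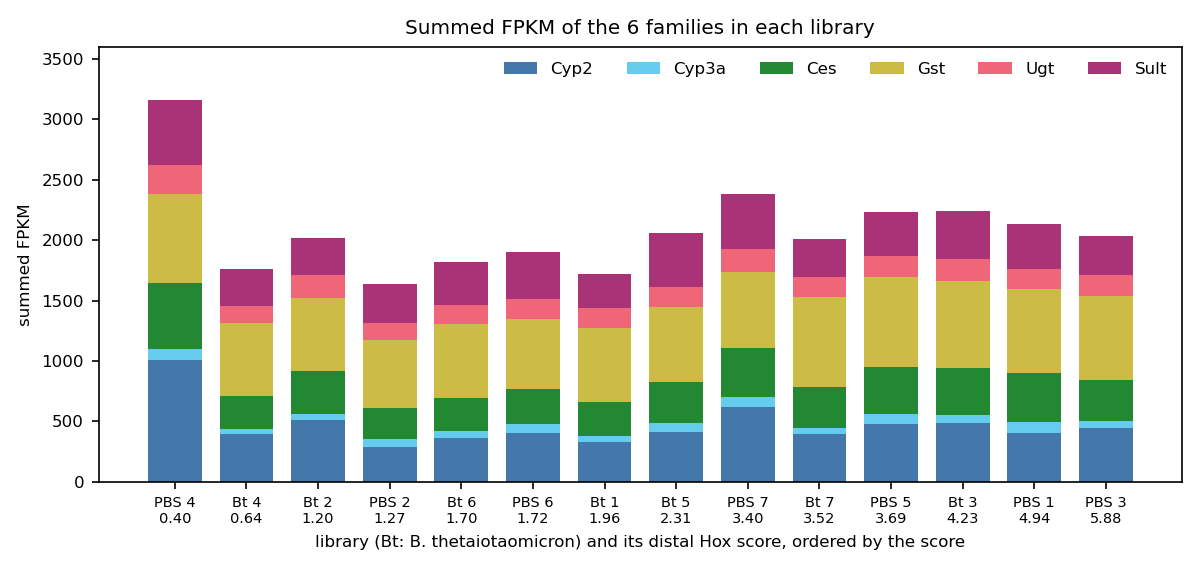
Stacked bars of the summed deposited FPKM of each family in each of the 14 samples (Bt is B. thetaiotaomicron), ordered by the distal Hox score printed under each name. PBS sample 4 on the left reaches 3162 FPKM, of which 1011 FPKM is Cyp2, while the other samples lie between 1635 and 2381 FPKM.

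Many members have close copies, so counts may depend on how shared reads were assigned. Over windows of 50 bases of each gene's longest annotated transcript, 22 of the 63 tested members shared none with a transcript of another gene, and 17 shared over 20%. Sharing was 100% for Ugt1a6a, 69.3% for Ugt1a7c and 58.2% for Ugt1a1, which splice different first exons to common ones. It was 89.7% for Gsta1, 72.6% for Gstp2, 62.3% for Gstp1, 54.8% for Cyp2c69, 43.3% for Cyp2c68, 42.2% for Ces2c, 41.7% for Ugt2b5 and 40.5% for Cyp2d10. It was 29.0% for Cyp2d9, 28.8% for Gstm3, 26.0% for Gstt3, 23.1% for Gstm1, 22.2% for Ces2a and 20.6% for Cyp2c65. Values of these genes are less certain, and by how much was not tested, since these shares do not measure the error in a count. Cyp2c55 shared 0.5%, and Cyp2f2 and Cyp3a13 shared none.

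Gavage with the bacterium was compared with PBS to ask which of these enzymes differed. None of the 63 tested members passed a Benjamini-Hochberg adjusted p of 0.05 over all 14070 genes tested by edgeR's quasi-likelihood test, where 0.249% of all genes passed (35 genes). An unadjusted p under 0.05 was reached by 5 members, Cyp3a13, Ces2b, Gsta3, Ces2a and Cyp2s1, and by 15.2% of all genes. DESeq2 called 1 member, Cyp3a13, with 3.18% of all genes called. The log2 fold change was negative for 45 members and positive for 18, with a median of -0.15 against -0.013 over all genes, of which 53.8% were negative.

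Cyp3a13 had the smallest p of the members. Its level was lowest at 60.6, median 78.8 and highest at 89.7 FPKM with PBS, and 40.5, 51.5 and 79.1 FPKM with the bacterium. Of the 7 samples given the bacterium, 5 lay under all PBS samples, and the other 2 lay within the PBS range. The log2 fold change was -0.47 ± 0.14 (SE), with an edgeR adjusted p of 0.133 and a DESeq2 adjusted p of 0.0371. Its slope on the distal Hox score was 0.023 ± 0.047 (SE), which did not pass (edgeR adjusted p = 0.787). With the score in the model the gavage difference was -0.46 ± 0.15 (SE), with an edgeR adjusted p of 0.183.

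Among the carboxylesterases, Ces2b, an intestinal Ces2 gene, had the largest gavage difference of all members. It stood at 0.986, 6.62 and 11.8 FPKM with PBS (lowest, median and highest) and at 0.600, 1.72 and 3.62 FPKM with the bacterium. Within each group the samples with low distal Hox scores were mostly low, PBS sample 4 excepted, which held the maximum. The log2 fold change of -1.69 ± 0.57 (SE) did not pass (edgeR adjusted p = 0.185). Ces2a differed by -0.65 ± 0.27 (SE; adjusted p = 0.278), from 45.0 ± 17.1 FPKM with PBS to 28.8 ± 9.04 FPKM with the bacterium (SD, n = 7 each). Ces1f, a carboxylesterase of the Ces1 branch, differed the other way by 0.55 ± 0.33 (SE; adjusted p = 0.462), and the median over the 10 tested Ces genes was -0.30.

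Of the conjugating enzymes, Gsta3, an alpha-class transferase that protects mice against aflatoxin, came closest to passing. It was at 3.84, 5.45 and 7.89 FPKM with PBS and at 6.09, 8.17 and 10.3 FPKM with the bacterium (lowest, median and highest), and the groups overlapped between 6.09 and 7.89 FPKM. Its log2 fold change was 0.47 ± 0.17 (SE; edgeR adjusted p = 0.213). The median over the 19 tested Gst genes was -0.0012, and that over the 7 tested Ugt genes was -0.14. Ugt1a1, the bilirubin-conjugating gene, differed by -1.04 ± 0.71 (SE; adjusted p = 0.52), and by 0.048 without PBS sample 4. The 7 tested Sult genes had a median of -0.15, with 3 positive and 4 negative. Sult6b1, at or below 0.899 FPKM, had the smallest p of the Sult genes, at 0.43 ± 0.27 (SE; adjusted p = 0.47). Sult1d1 was at -0.28 ± 0.19 (SE) and Sult1b1 at -0.19 ± 0.16 (SE), neither past the threshold.

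Among the Cyp2 genes 17 of 19 had a negative gavage difference, with a median of -0.27 and none past the threshold. Cyp2s1, a P450 gene of epithelia outside the liver, had the smallest p of them and a small difference, -0.16 ± 0.076 (SE; edgeR adjusted p = 0.327), from 22.4 ± 2.54 to 20.2 ± 1.75 FPKM (SD, n = 7 each). The bacterium samples had the lower mean distal Hox score, and with the score as covariate the median over all 63 members was -0.061. It was -0.037 with an epithelial score as covariate and -0.054 by limma-voom with no covariate. By edgeR it was -0.035 with the 4 samples of highest score left out (1, 3 and 5 of the PBS group and 3 of the other).

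**Figure D3:**
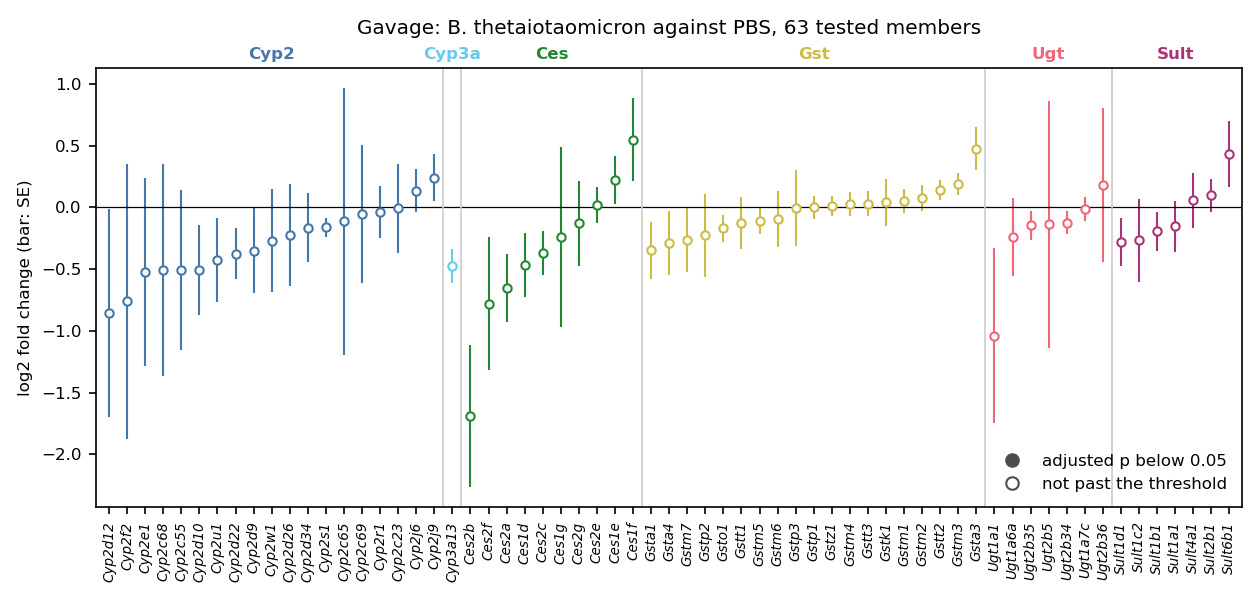
Log2 fold change (B. thetaiotaomicron minus PBS, with its SE) of the 63 tested members by family, from edgeR. No member passed an adjusted p of 0.05, Ces2b lies lowest at -1.69, and the Gst genes lie between -0.35 and 0.47.

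Across the 14 samples, the levels of many members followed the distal Hox score. A slope on the score, fitted by edgeR with gavage in the model, passed for 34 of the 63 tested members (54%), where 21.9% of all genes passed. Of these, 21 were higher with the score, against 10.6% of all genes, and 13 were lower, against 11.3% of all genes. The median absolute slope was 0.19 on the log2 scale per unit of score, against 0.043 over all genes. Fabp2 and the alkaline phosphatase gene Alpi of the small intestinal list had negative slopes as well (Alpi -0.87 ± 0.14, SE; edgeR adjusted p = 0.00128), and the part of such cells in the members' slopes was not tested. With an epithelial score as covariate 34 members and 18.2% of all genes passed, and with a smooth muscle score 31 members and 18.6%. No slope differed between the gavage groups past the threshold: the edgeR interaction was called for 0 members and 0 genes, with an unadjusted p under 0.05 for 3 members and 464 genes.

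In most branches all calls had 1 direction. All 4 tested Ces1 genes were lower with the score, though none passed without PBS sample 4, while 3 of 6 Ces2 genes were higher and none was lower. Cyp2d genes were higher in 4 of 6 cases and lower in none, Gstm genes in 4 of 7 and none, Gstp genes in 2 of 3 and none, and Gstt genes in 2 of 3 and none. Of 7 Ugt genes 3 were lower and none was higher. Cyp2c and Sult1 genes were called in both directions. These branches sit in gene clusters (all 19 Ces genes on chromosome 8, all 8 Cyp2d genes on chromosome 15), so their members are not independent.

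**Figure D4:**
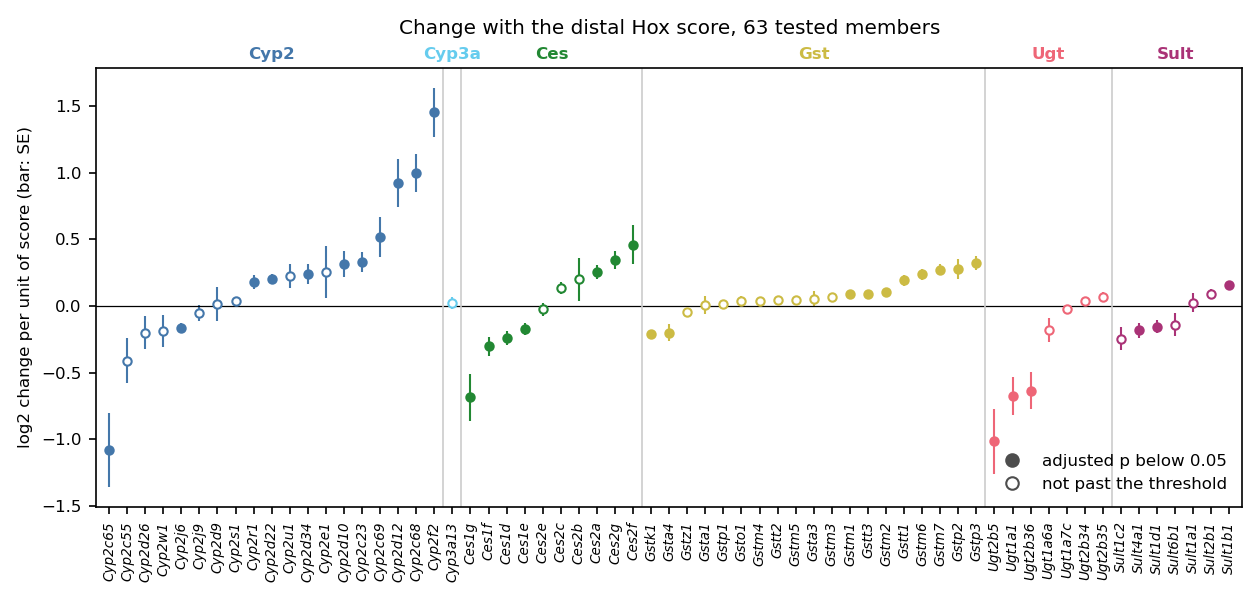
Log2 change per unit of the distal Hox score (with its SE) of the 63 tested members by family, filled where the edgeR adjusted p was below 0.05. Filled points reach from -1.08 for Cyp2c65 to 1.45 for Cyp2f2, and the Ces1 genes lie below 0 while the filled Ces2 genes lie above it.

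The Cyp2c genes, which oxidise arachidonic acid and many drugs, split within 1 cluster on chromosome 19. Cyp2c65 lies at 39061015 to 39093944 on the plus strand of GRCm38 and Cyp2c68 at 39688834 to 39741054 on the minus strand. The 250 bases before the RefSeq start of each are shown, since these genes of the same cluster had the opposite slopes of largest size in it. Capitals mark the searched motifs.

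Cyp2c65, chr19:39060756-39061005, plus strand, GRCm38.p6, from RefSeq: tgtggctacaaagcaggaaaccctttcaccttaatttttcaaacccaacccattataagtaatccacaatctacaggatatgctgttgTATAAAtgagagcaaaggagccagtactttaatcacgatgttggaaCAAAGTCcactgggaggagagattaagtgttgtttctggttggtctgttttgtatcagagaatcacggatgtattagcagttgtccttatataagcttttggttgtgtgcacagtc
Cyp2c68, chr19:39741102-39741351, minus strand, GRCm38.p6, from RefSeq: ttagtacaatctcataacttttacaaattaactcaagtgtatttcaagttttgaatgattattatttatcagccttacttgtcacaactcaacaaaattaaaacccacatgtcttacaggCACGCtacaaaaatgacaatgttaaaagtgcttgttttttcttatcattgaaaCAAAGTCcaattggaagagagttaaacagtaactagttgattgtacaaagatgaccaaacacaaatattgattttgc

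Of the 140 members, 120 had an entry in this RefSeq promoter table, 52 of them tested. Both promoters hold CAAAGTC, the core letters of HNF4A sites, 116 bases before the start in Cyp2c65 and 77 bases before it in Cyp2c68. It lies in the longest run of letters that the promoters share, aacaaagtcca. Cyp2c65 also holds TATAAA, the TATA box letters, 162 bases before the start. Cyp2c68 also holds GCGTG, the core of the xenobiotic response element, on its reverse strand 130 bases before the start. The GENCODE start lies 9 bases downstream of the RefSeq start in Cyp2c65 and 47 bases downstream in Cyp2c68.

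Searched on both strands, CAAAGTC was in 3.8% of 27025 promoters of this length and in 5 of the 52 tested members, TATAAA in 13.0% and 8, and GCGTG in 28.2% and 8. The CDX2 core CATAAA was in 11.1% of promoters and 5 members, and the posterior Hox core CAATAAA, which overlaps it in its last letters, in 4.4% and 1. Of the 17 members higher with the score that had a promoter, 3 held CAAAGTC, as did 1 of the 9 that were lower. CATAAA was in 1 of the 17 and in 3 of the 9. These matches describe letters in a window and nothing else.

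Cyp2c65 stood at 0.450, 29.3 and 223 FPKM with PBS and at 1.62, 35.5 and 130 FPKM with the bacterium (lowest, median and highest). It was highest in PBS sample 4 and B. thetaiotaomicron sample 2, which have low scores, and below 3 FPKM in PBS samples 1, 3 and 5 and B. thetaiotaomicron sample 3, the 4 samples of highest score. Its slope was -1.08 ± 0.28 (SE; edgeR adjusted p = 0.0171). Without PBS sample 4 the slope was -1.03 and no longer passed (adjusted p = 0.0818), as without PBS sample 3 (adjusted p = 0.0584). Its neighbour Cyp2c66, below the filter, was at 2.90 FPKM in PBS sample 4 and at 0 in those same 4 samples.

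Cyp2c68 ran the other way. It stood at 1.85, 20.01 and 79.96 FPKM with PBS and at 2.79, 12.5 and 63.9 FPKM with the bacterium. PBS sample 4 was the lowest of all 14 and PBS sample 3 the highest, and the groups overlapped throughout. The slope was 0.998 ± 0.144 (SE; edgeR adjusted p = 6.18e-04), and it was 0.52 ± 0.15 (SE; adjusted p = 0.0286) for its close copy Cyp2c69. Cyp2c55, the most abundant Cyp2 gene, spread from 29.1 to 605 FPKM within the PBS group, with a slope of -0.41 ± 0.17 (SE) that did not pass (adjusted p = 0.112).

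Cyp2f2, the P450 gene that activates naphthalene in mouse lung, had the steepest slope of the members. Levels were 0.0985, 1.501 and 11.98 FPKM with PBS and 0.101, 0.843 and 9.59 FPKM with the bacterium. Each group had its highest value in its sample of highest score. The lowest values rest on 3 reads each, in samples 2 and 4 of both groups, of which sample 4 had the lowest score of its group. The slope was 1.45 ± 0.18 (SE; edgeR adjusted p = 2.33e-04). Cyp2d12 ran from 0.497 FPKM in PBS sample 4 to 48.0 FPKM in PBS sample 5, with a slope of 0.92 ± 0.18 (SE; adjusted p = 0.00394). Among the lower Cyp2 genes, Cyp2j6, of the arachidonic acid epoxygenases, had a slope of -0.16 ± 0.03 (SE; adjusted p = 0.00369) over a level of 14.5 to 32.4 FPKM.

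**Figure D5:**
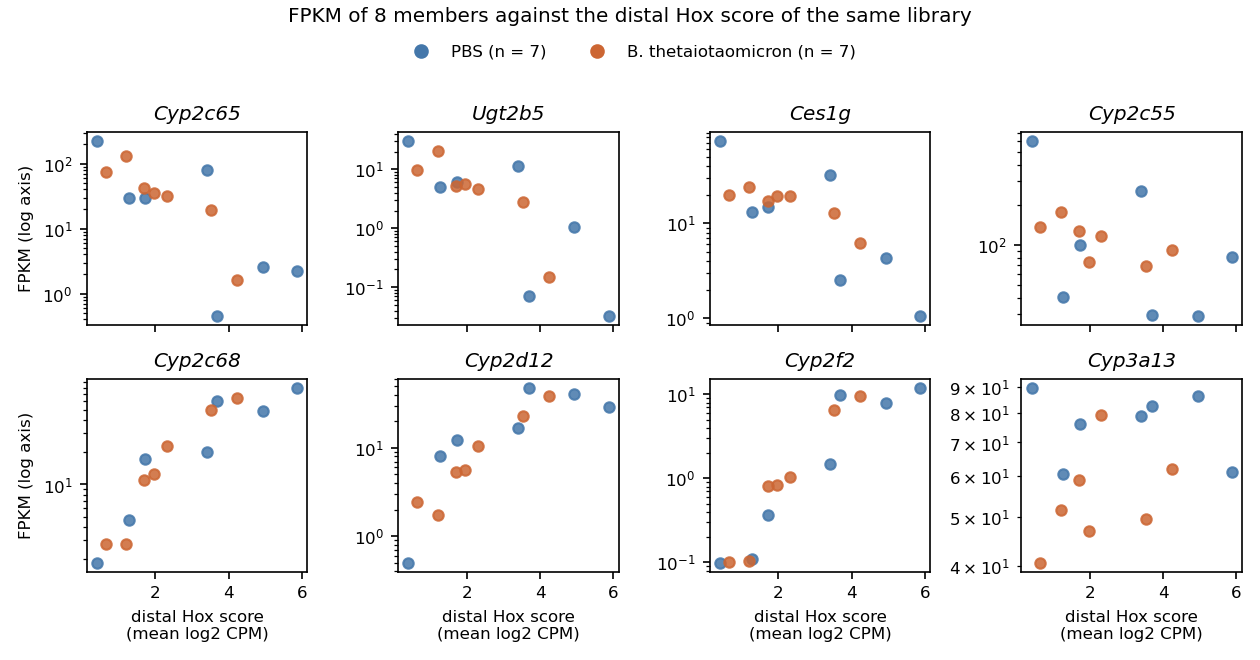
Deposited FPKM (log axis) of 8 members against the distal Hox score of the same sample (mean log2 CPM), blue for PBS and orange for B. thetaiotaomicron (n = 7 each). Cyp2c65, Ugt2b5 and Ces1g fall from left to right, Cyp2c68, Cyp2d12 and Cyp2f2 rise, while Cyp3a13 has no such course.

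The ethanol-oxidising gene Cyp2e1 did not follow the score (slope 0.25 ± 0.20, SE; edgeR adjusted p = 0.411). It was listed at 0 in PBS sample 5 and reached 10.7 FPKM in PBS sample 3, 7.76 FPKM in PBS sample 4 and 7.74 FPKM in B. thetaiotaomicron sample 3. Adipocytes also express Cyp2e1, and the summed level of 8 adipocyte genes ran from 6.64 FPKM in PBS sample 5 to 34.6 FPKM in PBS sample 3 and 47.2 FPKM in PBS sample 4, with none of them at 0 in all samples. With the bacterium that sum was 10.3 to 23.5 FPKM. Adipoq, the adiponectin gene, was at 0.0484, 6.93 and 9.87 FPKM in those 3 PBS samples. The part of adipose tissue in the Cyp2e1 values was not tested.

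Carboxylesterases of the Ces1 branch, which hydrolyse lipid and drug esters, were lower with the score. Ces1g went from 73.4 FPKM in PBS sample 4 to 1.06 FPKM in PBS sample 3 and from 23.8 to 6.27 FPKM within the bacterium group, with a slope of -0.69 ± 0.18 (SE; edgeR adjusted p = 0.0172). The slope was -0.24 ± 0.05 (SE; adjusted p = 0.00709) for Ces1d, a triacylglycerol hydrolase gene, and -0.17 ± 0.04 (SE; adjusted p = 0.00879) for Ces1e. Without PBS sample 4 the edgeR adjusted p was 0.117 for Ces1g, 0.0555 for Ces1d and 0.0778 for Ces1e. On the Ces2 side, Ces2g was lowest at 1.67 FPKM in PBS sample 4 and highest at 10.2 FPKM in B. thetaiotaomicron sample 3, with a slope of 0.35 ± 0.07 (SE; adjusted p = 0.00211). Ces2a had a slope of 0.26 ± 0.05 (SE; adjusted p = 0.0037), whereas the abundant Ces2c at 0.13 ± 0.046 (SE; adjusted p = 0.0567) and Ces2e at -0.024 ± 0.049 (SE; adjusted p = 0.781) did not pass.

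Glutathione transferases had smaller slopes by median than the Cyp2, Ces, Ugt and Sult genes, though 10 of 19 passed, against 21.9% of all genes. The ratio of the highest to the lowest sample was 1.53 for Gsto1, 1.57 for Gstm1 and 1.67 for Gstp1, the most abundant Gst genes. It was 4.19 for Gsta4 and 4.02 for Gstp3. The median absolute slope of the 19 tested Gst genes was 0.087, against 0.043 over all genes. It was 0.24 for Cyp2, 0.25 for Ces, 0.18 for Ugt and 0.15 for Sult. Gstk1, the mitochondrial and peroxisomal kappa-class gene, had the smallest p on the lower side, with 45.3 FPKM in PBS sample 4 and 16.6 FPKM in PBS sample 1 (slope -0.21 ± 0.02, SE; edgeR adjusted p = 4.72e-05). Gsta4, which conjugates the lipid peroxidation product 4-hydroxynonenal, was lower as well (slope -0.20 ± 0.06, SE; adjusted p = 0.0331). On the higher side were Gstm7 at 0.27 ± 0.04 (SE; adjusted p = 3.92e-04) and Gstp3 at 0.32 ± 0.05 (SE; adjusted p = 5.97e-04).

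Among the glucuronosyltransferases the slopes of the abundant genes did not pass. Ugt2b34, Ugt1a7c and Ugt2b35, the 3 most abundant, had slopes of 0.038 ± 0.028, -0.024 ± 0.030 and 0.067 ± 0.035 (SE), none past the threshold. The scarcer Ugt2b5, of the branch that conjugates steroids, was at 0.0324, 5.09 and 30.3 FPKM with PBS and at 0.149, 5.21 and 20.3 FPKM with the bacterium, lowest in PBS samples 3 and 5 and highest in PBS sample 4. Its slope was -1.02 ± 0.24 (SE; edgeR adjusted p = 0.0117), which did not pass without PBS sample 4 (adjusted p = 0.06). Ugt1a1 at -0.67 ± 0.14 (SE; adjusted p = 0.00414) and Ugt2b36 at -0.64 ± 0.14 (SE; adjusted p = 0.00433) were lower too.

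Among the sulfotransferases, Sult1b1, which conjugates phenols and thyroid hormone, was higher with the score, from 52.2 FPKM in PBS sample 4 to 97.4 FPKM in PBS sample 1 (slope 0.16 ± 0.03, SE; edgeR adjusted p = 8.83e-04). Sult1d1, a catecholamine sulfotransferase gene, was lower, from 244 FPKM in PBS sample 4 to 95.0 FPKM in PBS sample 5 (slope -0.15 ± 0.05, SE; adjusted p = 0.029). Sult4a1, known from brain, was lower as well at -0.18 ± 0.06 (SE; adjusted p = 0.0274). The most abundant, Sult1a1, had a slope of 0.025 ± 0.073 (SE) and did not pass. Sult2b1, which sulfates cholesterol, stood at 0.090 ± 0.036 (SE; adjusted p = 0.0864).

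The count of lower calls depended on few samples. Without PBS sample 4, 26 members passed, 23 higher and 3 lower, with 21.6% of all genes, and without PBS sample 3, 30 passed, 22 higher and 8 lower, with 16.2% of all genes. Within the 7 bacterium samples 24 passed, 21 higher and 3 lower, with 8.75% of all genes, and within the 7 PBS samples 2 passed, with 4.11% of all genes. With the 4 samples of highest score left out, 1 member passed, with 0.554% of all genes. All 34 members kept their sign in each of these fits.

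Genes that serve these enzymes were read in 4 lists, and no member of any passed for gavage, where 0.249% of all genes passed. In the list of electron and cofactor supply, 0 of 15 genes were higher with the score and 5 were lower, against 10.6% and 11.3% of all genes. Among these, Papss2, which makes the sulfate donor, had a slope of -0.17 ± 0.02 (SE; edgeR adjusted p = 9.37e-05), and Alas1, the first enzyme of haem synthesis, -0.15 ± 0.02 (SE), while Ugp2, which makes UDP-glucose, had -0.057 ± 0.014 (SE). Por, the reductase that feeds electrons to microsomal P450 enzymes, ran from 23.8 to 42.9 FPKM with a slope of -0.089 ± 0.022 (SE; adjusted p = 0.00936). G6pdx, a source of NADPH, and Gclm, for glutathione synthesis, had the smallest gavage p, with log2 fold changes of 0.14 ± 0.062 and 0.10 ± 0.049 (SE) that did not pass.

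Of the xenobiotic and nutrient receptors, 14 of 15 were tested. With the score 2 were higher and 4 lower, against 10.6% and 11.3% of all genes. Nr1i2, which encodes the drug sensor PXR, had a slope of 0.13 ± 0.02 (SE) and Vdr, the vitamin D receptor gene, 0.14 ± 0.03 (SE). Pparg and Ppara, the lipid-sensing receptor genes, had slopes of -0.20 ± 0.03 and -0.27 ± 0.06 (SE), and their partner Rxra -0.059 ± 0.015 (SE). Hnf4a, abundant at 206 FPKM, had a slope of 0.016 ± 0.019 (SE) that did not pass. For gavage, Keap1, which encodes a sensor of oxidative stress, differed by 0.12 ± 0.058 (SE), which did not pass.

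Of 29 other drug-metabolising enzymes 24 were tested, with 5 higher and 4 lower, against 10.6% and 11.3% of all genes. Cyp1a1, the classical target of the aryl hydrocarbon receptor, stayed at or below 0.191 FPKM and was not tested. Higher with the score were Adh1, the alcohol dehydrogenase gene, from 27.6 to 452 FPKM (slope 0.75 ± 0.10, SE), Aldh2, which clears acetaldehyde, at 0.31 ± 0.03 (SE), and the flavin monooxygenase gene Fmo4 at 0.54 ± 0.05 (SE). Nqo1, the quinone reductase gene, Aldh1a1, the retinal dehydrogenase gene, and the paraoxonase gene Pon2 had slopes of -0.24 ± 0.04, -0.47 ± 0.10 and -0.22 ± 0.03 (SE). Xdh, the xanthine dehydrogenase gene, and Ephx1, the microsomal epoxide hydrolase gene, had the smallest gavage p, with log2 fold changes of 0.41 ± 0.14 and 0.20 ± 0.09 (SE), neither past the threshold.

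The 14 efflux and uptake transporters were all tested, with 3 higher and 4 lower, against 10.6% and 11.3% of all genes. The peptide transporter gene Slc15a1 had a slope of 0.58 ± 0.13 (SE), from 0.612 FPKM in PBS sample 4 to 38.7 FPKM in PBS sample 3. The efflux pump genes Abcc4 and Abcc2 were higher at 0.17 ± 0.03 and 0.21 ± 0.07 (SE), Abcc2 at a mean of only 0.305 FPKM. Abcc5, the organic cation exporter gene Slc47a1 and the carnitine transporter gene Slc22a5 were lower at -0.27 ± 0.05, -0.80 ± 0.16 and -0.13 ± 0.03 (SE). Slc47a1 was scarce, at a mean of 0.330 FPKM and at 0 in PBS sample 1 and B. thetaiotaomicron sample 3. For gavage, the efflux pump genes Abcc3 at 0.27 ± 0.12 and Abcg2 at 0.13 ± 0.08 (SE) had the smallest p, and neither passed.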

How the data were processed

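RNA sequencing libraries were made from total RNA of the colon with a SMARTER kit, per the labels' protocols. Which aligner and counting program were used, and with what strand setting, is not given in the sources used here, and the submitters' processing notes name GRCm38 and mm10 as builds. Raw counts and FPKM values stand side by side in the single table that the authors deposited, per the file headers. Each deposited FPKM value above 0 (225846 in all) equalled, within 1%, its count over the product of gene length and total count. They served as levels, and only counts were tested. Library names tied the columns to samples, and titles gave the groups.

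Of 21898 genes, 14070 were kept by filterByExpr (minimum count 10, minimum total count 15). The counts were tested with edgeR 4.0.16 in R 4.3.3 (TMM scaling, quasi-likelihood F test, robust dispersions, Benjamini-Hochberg adjustment over all genes tested, threshold 0.05). One fit had gavage as its only term, and another had gavage and the distal Hox score, which is the mean log2 CPM (prior count 2) of Hoxa13, Hoxb13, Hoxd10, Hoxd11 and Hoxd13. Hoxd12, the other gene of that list of 6, did not pass the filter. The biological coefficient of variation was 0.21 at 13150140 to 16781708 counts per sample. The scripts were tested on simulated data. No pair of samples agreed within sampling noise, and each counts as its own replicate.

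Alternatives were DESeq2 1.42.0, limma-voom 3.58.1, other scaling factors, filters and thresholds, non-robust dispersions, covariates, a replicate block, Hoxb13 alone as the score, fits within groups, and leaving samples out. No batch could be separated, since the labels give the same batch for all samples. The table's coordinates matched no GENCODE M21 start among the 140 members, so positions were taken from GENCODE M21 by identifier.

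The members and gene lists were chosen with earlier results of these data known. Genes are named by rule: in each family the 3 of highest mean FPKM and the 2 of smallest p in each direction for gavage and for the score, and in each list those past the threshold, up to 3 in each direction, and the 2 of smallest gavage p. Cyp2c66, Cyp2c69, Cyp2d12, Cyp2e1, Ces1g, Ugt2b5, Por, Hnf4a and Cyp1a1 were added after their values were seen. A gene that this rule names is not reported here. Figures were drawn with matplotlib 3.10.9.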

Additional observations from a re-analysis of the deposited data

Results flagged for a closer look

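Within a group of 7, a sample is listed here where its gap to the nearest other sample, on the log2 CPM scale, divided by the whole range exceeded Dixon's 95% critical value for groups of that size. Of 82 groups of values examined, 6 did so, and chance gives about 1 in 20. Cyp2d34 was at 29.1 FPKM in PBS sample 4 against 79.7 to 154 FPKM in the other PBS samples. Ces2g was at 1.67 FPKM in that sample against 5.52 to 9.85 FPKM, and Ugt1a7c was at 39.6 FPKM there against 23.6 to 27.7 FPKM. Cyp3a44, which fell below the filter, was at 0.407 FPKM (12 reads) in PBS sample 4 and at 0 in the other 6 PBS samples. With all other values at 0 its ratio is 1 whatever the count, so its listing carries no weight. Ces1f was at 38.0 FPKM in B. thetaiotaomicron sample 2 against 22.0 to 28.6 FPKM in the rest of its group. Sult1b1 was at 92.3 FPKM in B. thetaiotaomicron sample 3 against 59.1 to 68.7 FPKM. PBS sample 4 also had the lowest distal Hox score, 0.40, and B. thetaiotaomicron sample 3 had the highest of its group, 4.23.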

How the results depend on the processing

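For gavage, the count of members past the threshold was 0 in edgeR, in every fit leaving out 1 sample (0 to 0) and with the replicate block, and 1 in DESeq2. Of all genes, 0.249% passed in edgeR, 0% to 0.867% leaving out 1 sample, 0.107% with the replicate block and 3.18% in DESeq2. The median log2 fold change was -0.21 to -0.076 leaving out 1 sample and -0.073 with the replicate block. For the distal Hox score, 34 members and 21.9% of all genes passed. Leaving out 1 sample, 26 to 34 members passed (medians 0.032 to 0.072), with 16.2% to 22.3% of all genes. Without the 2 samples farthest from the median score (PBS 1 and 3) 24 members passed, with 12.5% of all genes. Hoxb13 alone as the score gave 36 members, with 14.1% of all genes. With Hoxb13 alone the balance changed to 16 higher and 20 lower, from 21 higher and 13 lower in the main fit. Of those 36 members, 28 were among the 34 of the main fit. The count was 1 without PBS 1, 3 and 5 and B. thetaiotaomicron 3 (0.554% of all genes) and 2 within the PBS samples (4.11%). It was 0 with the replicate block, in which no gene of 14070 passed. The last fit has few residual degrees of freedom. Same-numbered samples correlated at -0.26 to 0.60, with 4 of 7 pairs over 0.1 and 2 of 7 samples closest to their own number. With 7 pairs, whose samples also vary in the distal Hox score, this cannot decide whether same-numbered samples share more than a number. Reversed gavage values without those 4 samples were Sult1b1 0.022, Cyp2j6 -0.033, Ces1e -0.013 and Ugt2b36 -0.40. Ugt2b36 was also -0.061 with the Hox covariate and -0.23 with an epithelial covariate. Leaving out 1 sample, it was -0.17 to 0.73, and Ugt1a1 was -1.30 to 0.048, the highest without PBS 4. Reversed slopes were Ugt2b34 -0.052, Cyp3a13 -0.026, Alas1 0.0093 and Ugt2b35 -0.14 with the replicate block, Ugt2b34 -0.0032 with Hoxb13 alone and Cyp3a13 -0.011 within PBS. The Cyp3a13 slope was -2.6e-04 to 0.070 leaving out 1 sample. The causes were not tested. The other 1870 single-gene values kept direction and side of the threshold, 168 fell short of it and 7 came past it.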
